A study of Mus musculus with 2 samples.

Results

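The cells described here were blood vessel endothelial cells of mouse mammary tumors, each chosen by the summed level of 5 genes known from lipid-handling capillaries. Fabp4 encodes a cytosolic fatty acid carrier, Cd36 a surface fatty acid translocase, Car4 a carbonic anhydrase on the capillary surface, Timp4 an inhibitor of metalloproteinases, and Cd300lg a glycoprotein of capillary and high endothelial cells. Of 14795 cell barcodes, 1309 passed as non-cycling, non-lymphatic endothelial cells without high counts of the venous genes Ackr1 and Selp. The 25% with the highest sum over both libraries were kept, which gave 327 cells, 152 from PyMT-M tumors and 175 from PyMT-N tumors. The other 982 cells, 304 and 678, are the reference. Because the 5 genes selected the cells, their excess over the reference is a description of the choice and was not tested.

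PyMT-M and PyMT-N are sublines of the MMTV-PyMT model, in which a mammary promoter drives the polyoma middle T oncogene, and the study classes them as High-MAC and Low-MAC. Tumor cells of each were placed in the mammary fat pad of female C57BL/6 mice. CD45+ and Ter119+ cells were depleted, CD31 and CD144 beads and then a CD31+ CD144+ sort enriched the endothelium, and cells of 3 tumors were pooled for 1 droplet library per subline. With 1 library per condition no difference between the sublines has a replicate check, no p-value is given, and intervals cover counting error only. The library of PyMT-M contained 7821 barcodes with 141067264 unique molecular identifiers (UMIs), 18790 per barcode at the median, and the library of PyMT-N 6974 barcodes with 116150425 UMIs, 15878 at the median. Despite the sort, 4686 PyMT-M and 3072 PyMT-N barcodes carried tumor markers, and these were used below for comparison. Some genes read below, such as Rbp7 in PyMT-M and Cxcl12 in PyMT-N, were found in tumor cells too. The libraries shared 20 barcode sequences, none of them among the chosen cells. The gated endothelial cells were much shallower in PyMT-M, where chosen cells had a median of 5206.5 UMIs and 2193 genes, than in PyMT-N, with 12924 UMIs and 3943 genes. Within a library the chosen and other cells were close in depth, the medians of the other cells being 4684.5 (PyMT-M) and 11891 UMIs (PyMT-N). Mitochondrial shares were close as well, with medians of 2.82 and 2.97% in chosen and other PyMT-M cells and 2.89 and 3.13% in PyMT-N.

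As background, capillary endothelium passes fatty acids from the blood to the tissue. Lipoprotein lipase, held on the capillary wall by the anchor Gpihbp1, releases fatty acids from lipoproteins. Cd36 and caveolae help bring them into the endothelial cell, and Fabp4 and Fabp5 carry them through the cytosol. This set of genes is known from capillaries of heart, muscle and fat, where the transcription factors Meox2 and Tcf15 and the nuclear receptor Pparg control parts of it. Levels below are in CPM, the UMIs of a gene per 1000000 summed UMIs of a group of cells, and ratios are log2 ratios of CPM with a 95% interval for a ratio of Poisson counts. The chemistry counts the 3' end of transcripts, so CPM is taken as a level per transcript without division by length.

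The chosen cells made up 33.3% of gated PyMT-M cells (152 of 456, exact Clopper-Pearson interval 29.0 to 37.9%) and 20.5% of gated PyMT-N cells (175 of 853, 17.9 to 23.4%). The difference was 12.8 percentage points (7.64 to 18.1, counting error only). It depended on the rule, with 42.8 points when Fabp4 was left out of the sum, 32.7 with the mean of ranks and 9.12 with Fabp4 alone. The sum had no gap at the threshold. The last cell inside had 2085.94 CPM and the first outside 2080.04 CPM, and 119 chosen and 152 other cells lay within 1.5-fold of it. The chosen PyMT-M cells reached further above the threshold, with a median sum of 6009 CPM against 3031 CPM in PyMT-N, although the single highest cells were alike at 58002 and 60154 CPM. At the other end, 77 PyMT-M and 179 PyMT-N cells had no UMI of any of the 5 genes.

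**Figure D1:**
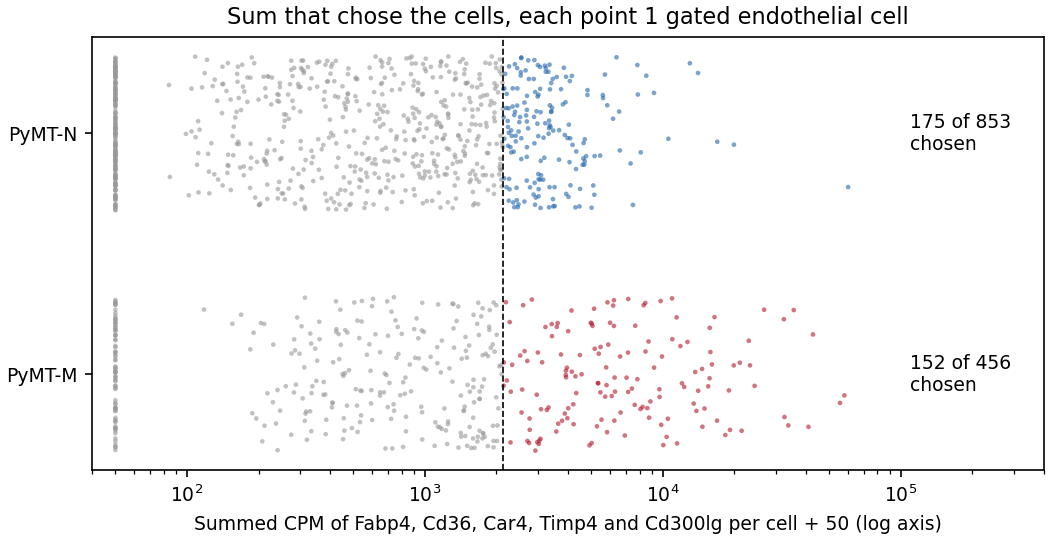
Summed CPM of the 5 choosing genes plus 50, on a log axis, for each of the 456 PyMT-M and 853 PyMT-N gated cells, with vertical scatter for visibility only. Colored points right of the dashed line are the 152 and 175 chosen cells, gray points the other cells, and the column at 50 holds the 77 and 179 cells without a UMI of the 5 genes.

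The label of lipid-handling capillary cells held only in part, and Fabp4 carried the choice. Fabp4 supplied 90.6% of the UMIs of the 5 genes in chosen PyMT-M cells and 96.8% in chosen PyMT-N cells, and choosing on Fabp4 alone kept 304 of the 327 cells. In PyMT-M, Cd36 supplied 5.60% and Cd300lg 3.59%, and in PyMT-N 1.63% and 1.27%. Car4 had 7 UMIs in chosen PyMT-M cells and 21 in PyMT-N, and Timp4 had 4 and 1. Fabp4 was the single gene of the 5 detected in 130 of 175 chosen PyMT-N cells (74.3%) but in 20 of 152 PyMT-M cells (13.2%), while 71 PyMT-M cells and 19 PyMT-N cells held at least 3 of the 5. The cells are therefore called Fabp4-high endothelial cells below.

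Capillary genes outside the rule had mixed ratios between Fabp4-high and other cells. Gpihbp1 stood at 1620 CPM in Fabp4-high and 1831 CPM in other PyMT-M cells, and at 2172 and 1479 CPM in PyMT-N. Rgcc, a cell cycle regulator common in capillary cells, stood at 653 and 607 CPM in PyMT-M and at 367 and 405 CPM in PyMT-N. The water channel Aqp1 stood at 846 and 861 CPM in PyMT-M and at 639 and 414 CPM in PyMT-N. The 3 genes were thus near even or lower in chosen cells of PyMT-M. In PyMT-N, Gpihbp1 and Aqp1 were higher in chosen cells by less than 2-fold, with intervals that did not overlap, and Rgcc was not. Btnl9 and Plvap were higher in chosen cells of both libraries, also by less than 2-fold. Btnl9 stood at 102 against 67.5 CPM in PyMT-M, with overlapping intervals, and at 103 against 83.9 CPM in PyMT-N. Plvap stood at 1364 against 1088 CPM in PyMT-M and at 916 against 830 CPM in PyMT-N. Of 21 genes listed for capillary identity, 5 chose the cells and 11 of the rest had enough UMIs to rank. None was at least 2-fold higher in both libraries, which 0.0701% of all 4277 ranked genes were, so the count of 0 says little about 11 genes. Their median log2 ratio was -0.03 (PyMT-M) and 0.03 (PyMT-N), against -0.05 and -0.04 over all ranked genes.

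High Fabp4 was also found outside the gate. The 43 PyMT-M and 61 PyMT-N endothelial cells left out for Ackr1 and Selp had 5392 and 1927 CPM of Fabp4, 318 and 105 CPM of Cd36 and 573 and 169 CPM of Fabp5. Their Rbp7, which encodes a retinol-binding protein, was low at 22.4 and 5.59 CPM. Cycling endothelial cells had 2250 and 566 CPM of Fabp4, and cells with a Prox1 UMI, the lymphatic regulator, had 301 and 89.0 CPM. Tumor cells had 6.16 and 0.839 CPM. Of 606 PyMT-M and 394 PyMT-N tumor cells thinned to 3000 UMIs per cell, 14 (2.31%) and 2 (0.508%) had a Fabp4 UMI, against 46.2% and 49.0% of the other gated cells.

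The values of the choosing genes were as follows. Fabp4 stood at 7698 CPM in Fabp4-high and 437 CPM in other PyMT-M cells, and at 3645 and 517 CPM in PyMT-N, log2 ratios of 4.14 and 2.82. Cd36 stood at 475 and 108 CPM in PyMT-M and at 61.5 and 19.9 CPM in PyMT-N, log2 ratios of 2.14 and 1.63. Cd300lg stood at 305 and 141 CPM in PyMT-M, a log2 ratio of 1.12, and at 47.7 and 39.5 CPM in PyMT-N, where the log2 ratio of 0.27 had an interval from -0.05 to 0.58. Cd36 and Cd300lg were thus lower in the Fabp4-high cells of PyMT-N than in the other cells of PyMT-M. In cells thinned to 3000 UMIs, 56.8% of Fabp4-high PyMT-M cells had a Cd36 UMI against 23.5% of the other cells, and in PyMT-N 10.3% against 3.86%. None of 606 PyMT-M and 394 PyMT-N tumor cells so thinned had one. Thinning left out 27 chosen and 53 other PyMT-M cells and 1 and 5 PyMT-N cells as too shallow, and without it 71.1% and 33.2% of PyMT-M cells and 14.3% and 13.3% of PyMT-N cells had a Cd36 UMI.

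**Figure D2:**
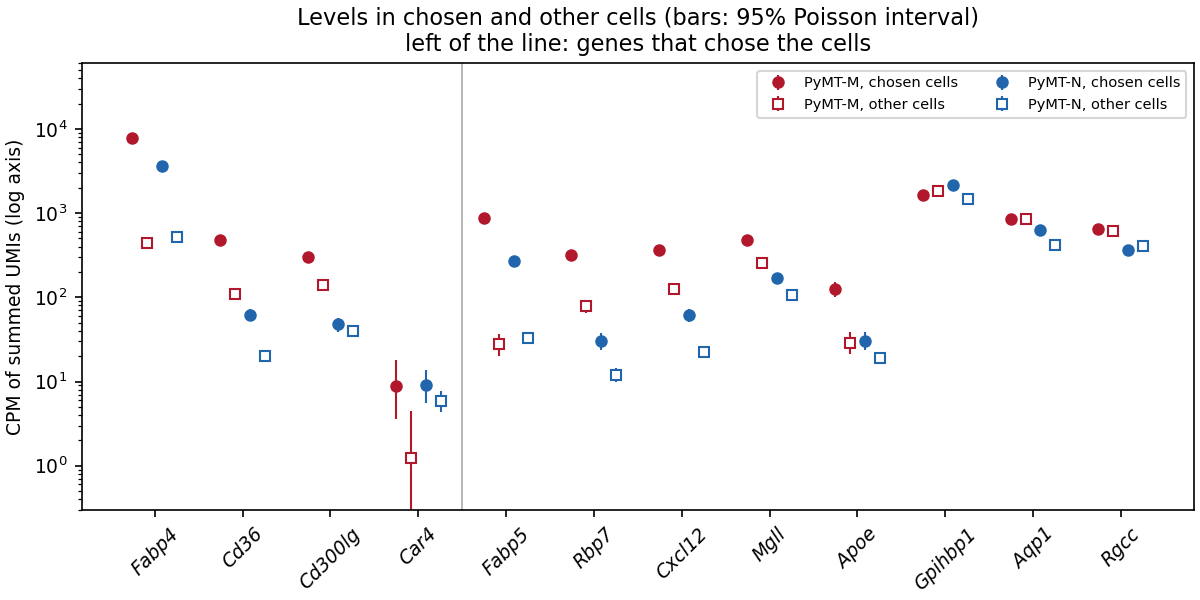
CPM of summed UMIs, on a log axis, of genes that chose the cells (left of the line) and of other genes in Fabp4-high cells (filled circles) and other gated cells (open squares) of PyMT-M (red) and PyMT-N (blue), with 95% Poisson intervals. Fabp5, at 864 and 269 CPM in chosen cells, is separated from the other cells in both libraries, while Gpihbp1 and Aqp1 are higher in chosen cells of PyMT-N and not of PyMT-M.

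Part of a high sum is counting luck, so the choice was repeated on a random split of each cell's UMIs, choosing on 1 portion and reading the other. The 5 genes together then had a log2 ratio of 3.50 (PyMT-M) and 2.55 (PyMT-N), against 3.63 and 2.69 with all UMIs. Both portions chose 271 cells in common out of 327 each. When a gene was left out of the sum and then read, Cd36 kept a log2 ratio of 2.05 in PyMT-M and 1.18 in PyMT-N. Cd300lg had 0.77 in PyMT-M but -0.76 in PyMT-N (-1.16 to -0.38), where it was lower in the chosen cells. Fabp4 itself, in cells chosen on the other 4 genes, stood at 4256 against 1445 CPM in PyMT-M, a log2 ratio of 1.56, and at 1407 against 1146 CPM in PyMT-N, where the ratio was 0.30 (0.21 to 0.38). Left out in turn, Fabp4 and Cd36 thus had smaller ratios in PyMT-N than in PyMT-M, a difference that was not tested. All 5 genes belong to the rule, so these values describe the choice. Without Fabp4 the cut took 241 PyMT-M and 86 PyMT-N cells, so the libraries were not read alike.

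Among genes that took no part in the choice, few followed it in both libraries. Of 4277 genes with at least 100 UMIs in the gated cells of each library, 3 (0.0701%) were at least 2-fold higher in the Fabp4-high cells of both libraries and 1 (0.0234%) was at least 2-fold lower. The 3 were Fabp5, Cxcl12 and Rbp7, and the 1 was Chga. All are transcripts of the cells that were chosen, so these ratios too are a description. In a single library, 17 genes were past 2-fold higher in PyMT-M and 7 in PyMT-N, these 3 included.

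Fabp5, the second cytosolic fatty acid carrier of endothelium, stood nearest to Fabp4. It had 685 UMIs in Fabp4-high PyMT-M cells (864 CPM) against 45 in the other cells (27.6 CPM), and 626 UMIs in Fabp4-high PyMT-N cells (269 CPM) against 293 (33.1 CPM). The log2 ratios were 4.97 (4.53 to 5.44) and 3.02 (2.82 to 3.23). Thinned to 3000 UMIs, a Fabp5 UMI was found in 60.8% of Fabp4-high PyMT-M cells, 6.37% of other cells and 0.165% of tumor cells (1 of 606). In PyMT-N the shares were 32.8%, 7.88% and 3.05% (12 of 394 tumor cells). Myeloid cells left after the CD45 depletion carried Fabp5 too, at 1798 and 187 CPM, and immune marker genes in Fabp4-high cells summed to 5 and 11 UMIs. Over 9 alternatives that kept Fabp4 in the sum, the log2 ratio stayed between 4.59 and 7.49 in PyMT-M and between 2.87 and 4.59 in PyMT-N. With the portions of the UMI split exchanged, it was 4.23 in PyMT-M and 3.26 in PyMT-N. In cells chosen without Fabp4 it was 1.10 in PyMT-M and -0.45 (-0.85 to -0.06) in PyMT-N.

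Rbp7, a retinol-binding protein found in capillary endothelium, stood at 319 CPM in Fabp4-high and 78.6 CPM in other PyMT-M cells, and at 30.1 and 12.1 CPM in PyMT-N. The log2 ratios were 2.02 (1.71 to 2.34) and 1.32 (0.86 to 1.76). Its UMIs came from 57 of the 152 PyMT-M cells and 18 of the 175 PyMT-N cells, and 1 PyMT-N cell held 30.0% of them. PyMT-M tumor cells also carried Rbp7, at 17.2 CPM. Cxcl12, a chemokine that binds Cxcr4, stood at 361 and 125 CPM in PyMT-M and at 61.0 and 22.1 CPM in PyMT-N, log2 ratios of 1.53 (1.27 to 1.80) and 1.46 (1.14 to 1.78). Its UMIs came from 58 PyMT-M and 29 PyMT-N cells, and 1 of the PyMT-N cells held 22.5% of the 142 in that library's chosen cells. Of these 142 UMIs, 91 lay in the 25 chosen PyMT-N cells with a Cd36 UMI. The 150 without one stood at 24.9 CPM of Cxcl12, near the 22.1 CPM of the other cells. PyMT-N tumor cells had Cxcl12 at 57.4 CPM, so in that library the level in Fabp4-high cells was near that of tumor cells, and whether free tumor RNA added to it was not tested. In PyMT-M tumor cells had 0.223 CPM. In cells chosen without Fabp4, Rbp7 kept log2 ratios of 2.25 (PyMT-M) and 1.35 (PyMT-N), while Cxcl12 had 0.90, under 2-fold, and 2.48. Fibroblasts had 249 CPM in PyMT-M and 26.0 CPM in PyMT-N, and the fibroblast genes counted in Fabp4-high cells are given further on.

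The promoters of the 2 genes other than Fabp5 that followed the choice, and that of Cd36, are given because Rbp7 and Cxcl12 were past 2-fold in both libraries without a part in the sum, and Cd36 added most UMIs to the sum after Fabp4 in the chosen cells. The sequences run from 250 bases before to 50 bases after the gene start, 5' to 3' on the strand of the gene, from RefSeq on GRCm38.p6, and 3 of 5 genes looked up matched. Capitals mark the letters AGGTCA or the reverse complement TGACCT, the half-site bound by Pparg with its partner and by many other nuclear receptors.
Rbp7, chr4:149454919-149455218, minus strand: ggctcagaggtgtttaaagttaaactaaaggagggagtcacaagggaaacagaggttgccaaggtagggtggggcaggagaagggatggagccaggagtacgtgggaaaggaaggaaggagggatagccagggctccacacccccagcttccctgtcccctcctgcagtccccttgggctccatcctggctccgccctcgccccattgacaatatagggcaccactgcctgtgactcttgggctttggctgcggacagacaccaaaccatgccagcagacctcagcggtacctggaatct
Cxcl12, chr6:117168285-117168584, plus strand: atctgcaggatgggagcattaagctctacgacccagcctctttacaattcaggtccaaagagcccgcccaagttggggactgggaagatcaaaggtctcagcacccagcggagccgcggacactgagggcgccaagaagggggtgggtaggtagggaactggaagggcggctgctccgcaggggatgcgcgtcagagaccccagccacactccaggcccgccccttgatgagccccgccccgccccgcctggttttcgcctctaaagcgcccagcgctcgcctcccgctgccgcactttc
Cd36, chr5:17835847-17836146, minus strand: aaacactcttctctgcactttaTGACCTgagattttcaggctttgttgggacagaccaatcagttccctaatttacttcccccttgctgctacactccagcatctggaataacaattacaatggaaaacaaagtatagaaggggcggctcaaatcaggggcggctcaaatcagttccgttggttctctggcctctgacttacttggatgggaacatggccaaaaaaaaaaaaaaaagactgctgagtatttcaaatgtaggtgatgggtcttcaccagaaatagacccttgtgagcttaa
Cd36 held 1 match, and Rbp7 and Cxcl12 held 0. Among 32851 promoters of this length 5340 (16.3%) held at least 1. A match in these letters is not evidence of binding, and no binding was measured.

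**Figure D3:**
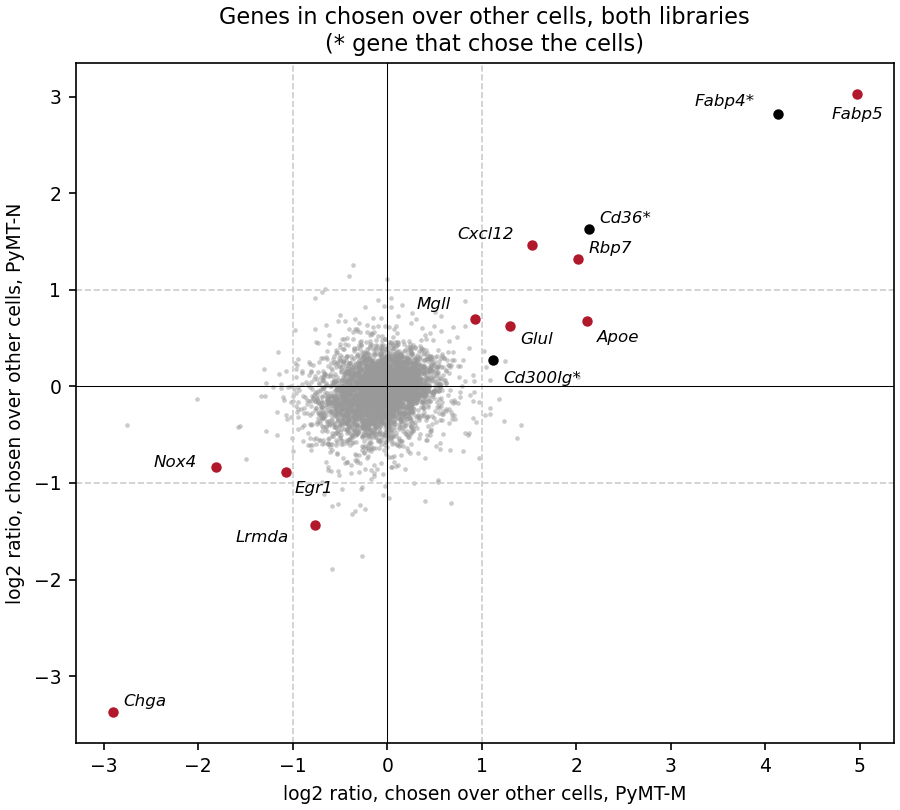
Log2 ratio of CPM, Fabp4-high over other gated cells, in PyMT-M (horizontal) and PyMT-N (vertical) for genes with at least 100 UMIs in each library; dashed lines mark 2-fold. Fabp5 lies beside Fabp4 at the upper right, Rbp7 and Cxcl12 lie past 2-fold in both libraries, Chga lies alone at the lower left, and most genes lie near 0.

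Genes next in rank were past 2-fold in neither library or in 1. Mgll, the monoglyceride lipase that completes triglyceride breakdown, stood at 484 and 254 CPM in PyMT-M and at 171 and 106 CPM in PyMT-N, log2 ratios of 0.93 and 0.70. Apoe, an apolipoprotein that macrophages also make, stood at 125 and 28.9 CPM in PyMT-M and at 30.5 and 19.1 CPM in PyMT-N, log2 ratios of 2.11 and 0.68. Glul, the glutamine synthetase, had log2 ratios of 1.30 and 0.63, and Lims2, a focal adhesion adaptor, 0.82 and 0.89. The transcription factor Klf4 had 0.69 and 0.62, the endothelin receptor gene Ednrb 0.57 and 0.72, the junction gene Jam2 0.82 and 0.63, and Plat, tissue plasminogen activator, 0.50 and 0.62. Bcam, Dusp2, Unc45b and Sema7a filled the rest of the 15 highest, with ratios between 0.48 and 0.77. In cells chosen without Fabp4, Plat turned to -0.14 in PyMT-M and -0.99 in PyMT-N, Dusp2 to -0.32 and -0.45, and Sema7a to -0.60 in PyMT-N.

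At the lower end, Chga, which encodes the secretory granule protein chromogranin A, had 20 UMIs in Fabp4-high PyMT-M cells (25.2 CPM) against 307 in other cells (188 CPM), and 3 against 118 UMIs in PyMT-N. The log2 ratios were -2.90 (-3.63 to -2.25) and -3.37 (-5.67 to -1.79). These UMIs sat in few cells, 37 of the other PyMT-M cells and 9 of the other PyMT-N cells, of which 1 held 40.7%. With the 6% deepest cells left out Chga had 82 UMIs in PyMT-N and fell below the minimum of 100, while its log2 ratios of -2.96 and -2.83 stayed past 2-fold. It was also too scarce to rank when cells were thinned to 3000 UMIs or set against the lowest 25%, where Lrmda was among the genes 2-fold lower in both libraries. Nox4, an oxidase that makes hydrogen peroxide, stood at 68.1 against 239 CPM in PyMT-M and at 104 against 185 CPM in PyMT-N, log2 ratios of -1.81 and -0.83. The immediate early gene Egr1 had -1.07 and -0.89, Lrmda -0.77 and -1.44, the adaptor Gab1 -0.69 and -0.99, and the glutamine transporter Slc1a5 -0.67 and -1.11. Kansl1l, Lncppara and Pdia5 were also among the 10 lowest, with ratios from -1.498 to -0.66. In cells chosen without Fabp4, the PyMT-N ratios of Egr1, Lrmda, Gab1, Slc1a5, Lncppara and Pdia5 were above 0, between 0.22 and 0.76, and Pdia5 had 0.49 in PyMT-M.

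Within the gate, the levels were also read along the rank of the sum. The highest 5% of cells were 57 from PyMT-M (12.5% of its gated cells) and 8 from PyMT-N (0.938%), and since 1 range of the sum defined them in both libraries, their Fabp4 levels of 15051 CPM in the 57 and 13702 CPM in the 8 were set by the choice. Among genes outside the sum, Fabp5 stood at 1764 and 2242 CPM, Apoe at 348 and 411 CPM and Mgll at 677 and 1009 CPM, the last with intervals that did not overlap. Rbp7 stood lower in PyMT-N, at 477 and 137 CPM. Of the other choosing genes, Cd36 stood at 765 and 996 CPM and Cd300lg at 359 and 174 CPM. The next cells, from 5 to 25%, were 95 from PyMT-M and 167 from PyMT-N. Fabp4, again set by the choice, stood at 3895 and 3285 CPM there, and Cd36 stood at 325 CPM in PyMT-M and 28.0 CPM in PyMT-N, Mgll at 385 and 141 CPM, and Rbp7 at 237 and 26.3 CPM. In the cells from 25 to 50%, Cd36 stood at 184 and 30.2 CPM, so in PyMT-N it was as low there as in the chosen cells between 5 and 25%. Only 3 of the 8 PyMT-N cells had a Cd36 UMI, against 42 of the 57 PyMT-M cells, and 1 PyMT-N cell held 31 of the 143 Cd36 UMIs of its library's chosen cells. The highest 5% were shallower than the chosen cells as a whole, with medians of 4166 and 8547 UMIs.

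**Figure D4:**
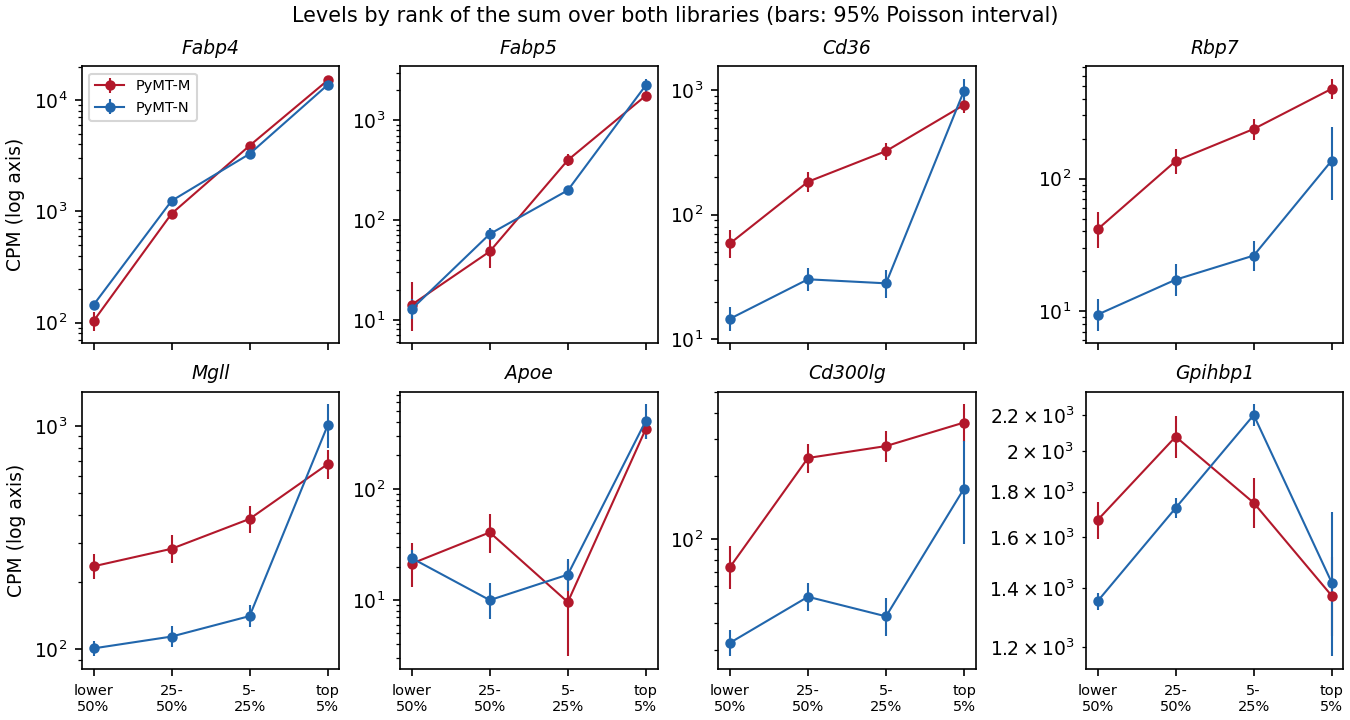
CPM (log axes that differ between panels) of 8 genes in the lower 50%, 25 to 50%, 5 to 25% and highest 5% of gated cells by the sum, in PyMT-M (red; 192, 112, 95 and 57 cells) and PyMT-N (blue; 463, 215, 167 and 8 cells), with 95% Poisson intervals. Fabp4 climbs by construction and Fabp5 climbs with it in both libraries. Cd36 and Mgll lie higher in PyMT-M only below the highest 5%. Rbp7 and Cd300lg lie higher in PyMT-M in every rank, Cd300lg with overlapping intervals in the highest 5%. Gpihbp1 climbs over the lower 3 ranks in PyMT-N only and is lower again in the highest 5%.

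A few scarce transcripts of lipid-handling capillaries had most of their UMIs in these highest cells. Lpl, lipoprotein lipase, had 11 of its 13 UMIs in gated PyMT-M cells and 5 of its 6 in PyMT-N in the highest 5%. Aqp7, the glycerol channel, had 6 UMIs in each library, all in the highest 5%. Cyp4b1, a fatty acid hydroxylase of the cytochrome P450 family, had 14 UMIs in the highest 57 PyMT-M cells against 6 in all other gated cells, and 8 in the highest 8 PyMT-N cells against 3. Few cells carried them, and of the chosen PyMT-N cells 2 held all 8 Cyp4b1 UMIs and 1 held 4 of the 6 of Lpl. Other genes were denser in the highest 5% and had UMIs in all ranks. Lipe, the hormone-sensitive lipase, stood at 85.1 and 49.8 CPM in the highest 5% and at 17.2 and 13.8 CPM in the next cells. Ucp2, a mitochondrial carrier, stood at 129 and 62.3 CPM and then at 51.7 and 7.57 CPM. Apoe fell from 348 to 9.57 CPM in PyMT-M and from 411 to 16.9 CPM in PyMT-N between these ranks, so its excess in the Fabp4-high cells rested on the highest 5%.

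Fat cells make Lpl, Lipe, Aqp7, Fabp4 and Cd36 as well, so their other markers were counted. The 7 adipocyte genes Adipoq, Plin1, Cfd, Retn, Lep, Cidec and Plin4 had 0 UMIs together in Fabp4-high PyMT-M cells and 1, of Retn, in PyMT-N, and 0 in the other cells of both. Of 6 fibroblast genes there were 7 and 8 UMIs, led by Col3a1 and Col1a2. Of 6 epithelial and tumor genes there were 10 and 25 UMIs, led by Rhox5 and Krt18, and of 9 immune genes 5 and 11, led by Lyz2 and Cd68. Krt8, Krt18, Rhox5, Col1a1, Col3a1 and Ptprc were limited by the gate. Hemoglobin and Alas2 had 2 and 3 UMIs in Fabp4-high cells against 65 and 243 in other cells, where 1 cell of PyMT-M held 43 of the Hba-a1 UMIs and 1 of PyMT-N held 168 of the 171 Hbb-bs UMIs.

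The regulators of endothelial lipid handling had unlike ratios in PyMT-M and PyMT-N, and the difference was not tested. Tcf15, which with Meox2 drives fatty acid transport in heart capillaries, stood at 47.9 CPM in Fabp4-high and 9.82 CPM in other PyMT-M cells, a log2 ratio of 2.29, and 31 of its 38 UMIs were in the highest 5%. In PyMT-N it stood at 17.2 and 13.7 CPM, a log2 ratio of 0.33. Pparg stood at 70.6 and 30.1 CPM in PyMT-M, a log2 ratio of 1.23, and at 23.2 and 29.8 CPM in PyMT-N, -0.36. The 8 highest PyMT-N cells had 99.6 CPM from 8 Pparg UMIs (43.0 to 196), against 104 CPM in the 57 of PyMT-M. Meox2 went the other way, at 130 against 168 CPM in PyMT-M and 15.04 against 37.5 CPM in PyMT-N, log2 ratios of -0.37 and -1.32. Ppara had no UMI. Aplnr, the apelin receptor, had a log2 ratio of 0.67 in PyMT-M and -1.21 in PyMT-N. Of the 15 listed regulators 9 were ranked, none was past 2-fold in both libraries, and the medians were -0.15 and 0.00.

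Of the fatty acid genes dense enough to rank, Fabp5 was past 2-fold in both libraries, while the scarcer Lpl, Aqp7 and Cyp4b1, described above, were too low to be ranked. Of 16 genes of fatty acid uptake and transport, 2 chose the cells and 8 others were ranked. One of these 8, Fabp5, was past 2-fold in both libraries (0.0701% of all ranked genes were), and their median log2 ratio was 0.06 in PyMT-M and 0.08 in PyMT-N. The caveola genes Cav1, Cav2 and Cavin1 had ratios between -0.28 and 0.20, and Cavin2 had 0.67 in PyMT-M and -0.15 in PyMT-N. The acyl-CoA synthetase gene Acsl5 had -0.30 and -0.16, and the transporters Slc27a1, Slc27a3 and Slc27a4 had at most 24 UMIs each in the chosen cells of a library. Of 10 genes of lipoprotein uptake and cholesterol export 6 were ranked, with medians of 0.15 and 0.06. Scarb1, a receptor for high density lipoprotein, had 0.59 and -0.28, and the cholesterol exporter Abca1 -0.10 and 0.20. Of 15 fatty acid oxidation genes 6 were ranked, with medians of 0.11 and -0.07, and 15 oxidative phosphorylation genes had medians of 0.21 and 0.06, with 7 above 0 in both libraries, as 22.2% of all ranked genes were. The 5 ranked genes of lipid droplets and lipolysis had medians of 0.08 and 0.29. The coat protein gene Plin2 had 0.30 and 0.29, and Dgat2, which makes triglyceride, had 35 UMIs in Fabp4-high PyMT-N cells and 0 in PyMT-M. Its level was 15.04 CPM against 5.08 CPM in the other PyMT-N cells. With members below the minimum included, the signs of some of these small medians turned. In PyMT-M the lipid droplet genes went to -0.14, the oxidation genes to -0.06 and the regulators to 0.11, and the lipoprotein genes went to -0.03 and -0.11 (PyMT-M and PyMT-N). Of 12 PPAR targets, 2 chose the cells and 2 others were ranked, with medians of 0.07 and 0.45.

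Other vessel programs had median ratios of less than 2-fold between Fabp4-high and other cells, some of them with members on 1 side. Of 6 ranked arterial genes 4 were above 0 in both libraries, with medians of 0.36 and 0.31, while 22.2% of all ranked genes were above 0 in both. Sox17 had 0.36 and 0.60, Hey1 0.35 and 0.48, and the connexin gene Gja4 1.25 and 0.26. Gja5, another connexin of arteries, was 10 UMIs in PyMT-N at a log2 ratio of -1.99. The 16 tip cell genes had medians of -0.24 and 0.22 and the 5 venous genes -0.04 and -0.30. Of 17 interferon alpha and beta response genes 11 were below 0 in both libraries, with medians of -0.09 and -0.19, while 35.8% of all ranked genes were. Hypoxia genes had a median of -0.32 (PyMT-M) and 0.37 (PyMT-N), a difference that was not tested. Ero1a, an oxidase of the endoplasmic reticulum, had -0.66 and 1.01, and Ndrg1 had 0.16 and 0.84. Ramp3, which pairs with the adrenomedullin receptor, stood at 41.6 against 55.3 CPM in PyMT-M and at 111 against 50.2 CPM in PyMT-N.

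The chosen cells were not uniform. Of the 152 PyMT-M cells 108 had a Cd36 UMI, and these had more Rbp7 than the 44 without, at 400 against 138 CPM, and more Cxcl12, at 420 against 228 CPM. Of the 175 PyMT-N cells 25 had a Cd36 UMI. Their Cxcl12 was 326 against 24.9 CPM and their Gja4 229 against 52.3 CPM. Their Cd300lg was 208 against 25.9 CPM, but Cd36 and Cd300lg both chose the cells, so that contrast is a description of the choice. Fabp5 stood at 813 against 977 CPM in PyMT-M and 211 against 277 CPM in PyMT-N, with overlapping intervals. Split by Fabp5 instead, cells with a Fabp5 UMI had Cd36 at 507 against 401 CPM in PyMT-M and 74.9 against 36.0 CPM in PyMT-N, so the data give no single direction for this pair. Apln, a tip cell gene, stood lower in PyMT-M cells with Cd36, at 290 against 582 CPM, and at 71.6 against 111 CPM in PyMT-N, where the intervals overlapped. Gpihbp1 stood at 1545 against 1787 CPM and at 1103 against 2318 CPM. Cells with a Cd36 UMI were the shallower ones, with medians of 4707 against 5695 UMIs (PyMT-M) and 10638 against 13066 (PyMT-N).

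Between the tumor models, most listed interferon response genes were at least 2-fold higher in Fabp4-high cells of PyMT-M than of PyMT-N. Their median ratios were past 2-fold in the other cells too. Of the ranked fatty acid uptake genes 3 of 8 were at least 2-fold higher and none was 2-fold lower. The lists were not tested against each other. Of 7095 genes with at least 50 UMIs over the chosen cells, 302 (4.26%) were at least 2-fold higher in PyMT-M and 388 (5.47%) at least 2-fold lower, with a median log2 ratio of -0.01. The minimum applied to both libraries together, and the chosen PyMT-M cells held 793167 UMIs against 2327047 of PyMT-N, so genes could pass on 1 library alone. Under 10 UMIs in the lower library were found for 1 of the 302 and 122 of the 388. With a minimum of 20 on the mean CPM of both libraries, 315 of 6468 genes were higher and 305 lower. Of the 7095 genes 175 and 187 were past 2-fold in the other gated cells. A model and its library are the same contrast here and cannot be told apart. In cells thinned to 3000 UMIs, 146 of 3368 genes were higher and 179 lower. Thinning matched the UMIs per cell and not the number of chosen cells, 125 in PyMT-M and 174 in PyMT-N.

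Fabp4, Cd36 and Cd300lg chose the cells, so their ratios of PyMT-M over PyMT-N in the chosen cells are a description of the choice. Fabp4 had a log2 ratio of 1.08 (1.03 to 1.13) in the chosen and -0.24 in the other cells, Cd36 2.95 (2.67 to 3.24) and 2.44, and Cd300lg 2.68 (2.35 to 3.01) and 1.83. Outside the rule, Fabp5 had 1.68 (1.52 to 1.84) and -0.26, and Rbp7 3.41 (3.02 to 3.81) and 2.70. Within the ranks of the sum, Fabp5 stood lower in PyMT-M in the highest 5%, at 1764 against 2242 CPM with overlapping intervals. In the next chosen cells it stood at 398 against 199 CPM. Beyond the gate, Fabp4 was higher in PyMT-M in the cells left out for Ackr1 and Selp and in the cycling cells, as the levels above show. Its level in the PyMT-M cells with Prox1 rested on 14 UMIs, 10 of them in 1 cell. Fabp5 stood at 573 and 169 CPM in the first of these and at 254 and 64.9 CPM in the cycling cells. Cd36, Cd300lg and Rbp7 were higher in PyMT-M in chosen and other gated cells alike. Cavin2 had 2.32 and Cav1 1.20, Mgll 1.50 and Ucp2 3.05. Mgll was lower in PyMT-M in the highest 5%, at 677 against 1009 CPM, and higher in the next chosen cells, at 385 against 141 CPM. Apoe had 2.03 over all chosen cells but stood lower in PyMT-M in both ranks of the chosen cells, with overlapping intervals. Its levels were 348 against 411 CPM in the highest 5% (57 PyMT-M and 8 PyMT-N cells) and 9.57 against 16.9 CPM in the next. Among the other cells, Apoe stood at 40.6 against 9.96 CPM from 25 to 50% and at 21.3 against 23.8 CPM in the lower 50%. Gpihbp1 was lower in chosen PyMT-M cells, at -0.42 (-0.51 to -0.33), but higher in the other PyMT-M cells, at 1831 against 1479 CPM. In the highest 5% Gpihbp1 stood at 1372 against 1420 CPM, with overlapping intervals, and in the next chosen cells at 1748 against 2199 CPM. Dgat2 was at 0 UMIs in chosen and other PyMT-M cells, against 35 and 45 UMIs in PyMT-N. Of 8 ranked genes of fatty acid uptake 3 were at least 2-fold higher and none lower, against 4.26% and 5.47% of all genes, with a median of 0.37 (0.33 in the other cells). Of 11 lipid regulators 5 were higher, with a median of 0.61 (0.01 in the other cells). Of 13 fatty acid oxidation genes 1 was higher, and 7 lipid droplet genes had a median of -0.13 (0.46 in the other cells).

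Among lists with at least 15 members past the minimum, the interferon lists stood furthest from 0. Of 18 interferon alpha and beta response genes 17 were at least 2-fold higher in PyMT-M, against 4.26% of all genes, with a median log2 ratio of 1.58 (1.31 in the other cells). Isg15, a ubiquitin-like modifier, stood at 701 and 177 CPM, Irf7, a transcription factor of the response, at 410 and 97.1 CPM, and Bst2, a membrane protein that tethers virus particles, at 2011 and 710 CPM. Of 18 interferon gamma response genes 14 were higher, with a median of 1.38 (1.29 in the other cells). Of 17 genes of MHC class I presentation 8 were higher, with a median of 0.88 (1.00 in the other cells), H2-K1 standing at 2586 and 1150 CPM. These differences were present in chosen and other cells alike. At a minimum of 20 UMIs, 611 of 9352 genes were at least 2-fold higher in PyMT-M and 637 lower. The lists were also read with all scarcer members included. The share of all genes is not given for this setting, so members past 2-fold are not counted. Equal counts of a gene already give a ratio past 2-fold, since chosen PyMT-M cells held 793167 UMIs against 2327047 of PyMT-N. With scarcer members included, the medians of the S phase and of the G2 and M phase genes were 2.20 and 2.55. Those of the interferon lists read the same way were 1.67 and 1.55. The S phase and G2 and M phase ratios rest on few UMIs, such as 30 and 3 of Ccnb2, a cyclin of mitosis. The gate limited the UMIs per cell of 7 of the G2 and M phase genes regardless of depth, and its part in these ratios was not tested.

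Of 5 leukocyte adhesion and chemokine genes 4 were at least 2-fold higher, against 4.26% of all genes, with a median of 2.56 (2.22 in the other cells). With 5 genes the median is the value of 1 gene, here Cxcl12 at 361 and 61.0 CPM, a gene that also followed the choice of the cells. Ccl2 met the minimum through its PyMT-M UMIs alone, and the scarcer Cxcl16 had 3 UMIs against 26 in PyMT-N. Ccl2, which recruits monocytes, had the highest ratio of all ranked genes, 5.80 (4.18 to 8.12), from 57 UMIs against 3. Its PyMT-M UMIs came from 13 cells, 1 of which held 19, and its level of 71.9 CPM was below the 99.5 CPM of the other PyMT-M cells. Vcam1, which binds leukocyte integrins, had 46 and 15 UMIs and a ratio of 3.17 (2.30 to 4.12). In the other cells Ccl2 had 3.44 and Vcam1 2.22. The complement factor gene Cfb had 3.49 (2.79 in the other cells) and the matrix gene Fbln2 3.72 (1.79 there). The interferon genes Ifi27l2a and Apol9a had 3.99 and 3.30 (5.43 and 3.04 in the other cells). Slc6a6, the taurine transporter, had 64 UMIs in 26 PyMT-M cells and 15 in PyMT-N, a ratio of 3.65 (2.82 to 4.56), against -0.44 (-1.24 to 0.27) in the other cells. Rasgrf2 had 3.66 and Meox2 3.11 (1.44 and 2.17 in the other cells). Of these genes, Slc6a6, Cfb, Fbln2, Ifi27l2a, Apol9a and Meox2 also met the minimum on their PyMT-M UMIs alone.

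At the other end, Ptn, the growth factor pleiotrophin, had 1 UMI in PyMT-M and 400 UMIs in 61 cells of PyMT-N, at a log2 ratio of -7.09 (-12.4 to -4.60). The guidance receptor gene Robo1 had 12 and 885 UMIs, -4.65 (-5.61 to -3.84), and the decoy receptor gene Tnfrsf11b 1 and 71. Rgs6, Cacng4, ENSMUSG00000121444, 2610307P16Rik, Tnik, Kcnj8 and Gpx3 completed the 10 lowest, with ratios from -5.20 to -4.33, and each of the 10 met the minimum through its PyMT-N UMIs alone. In the other cells all 10 were lower in PyMT-M as well, with ratios from -5.63 (Cacng4) to -1.17 (Rgs6). There Ptn had -4.46 and Robo1 -3.25. A count of 0 took the floor of 3 counts, so genes at 0 in PyMT-M could rank above genes with 1 UMI there. Mogat2, which makes diglyceride, had 0 UMIs in PyMT-M and 128 UMIs in 72 PyMT-N cells. Basement membrane genes had a median of -0.60, with Col4a2 at 1384 and 2774 CPM and Sparc at 7049 and 9795 CPM. Kcnj8, with 9 and 590 UMIs, and Abcc9, with 14 and 462, encode the parts of a potassium channel known from pericytes, and the 6 pericyte genes together had 30 and 1064 UMIs. The pericyte markers Cspg4 and Notch3 were at 0 in the chosen cells of both libraries, Pdgfrb had 1 and 3 UMIs, and Rgs5 6 and 9. The other gated cells of PyMT-M and PyMT-N held 20 and 1081 UMIs of Kcnj8 and 54 and 1475 of Abcc9.

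**Figure D5:**
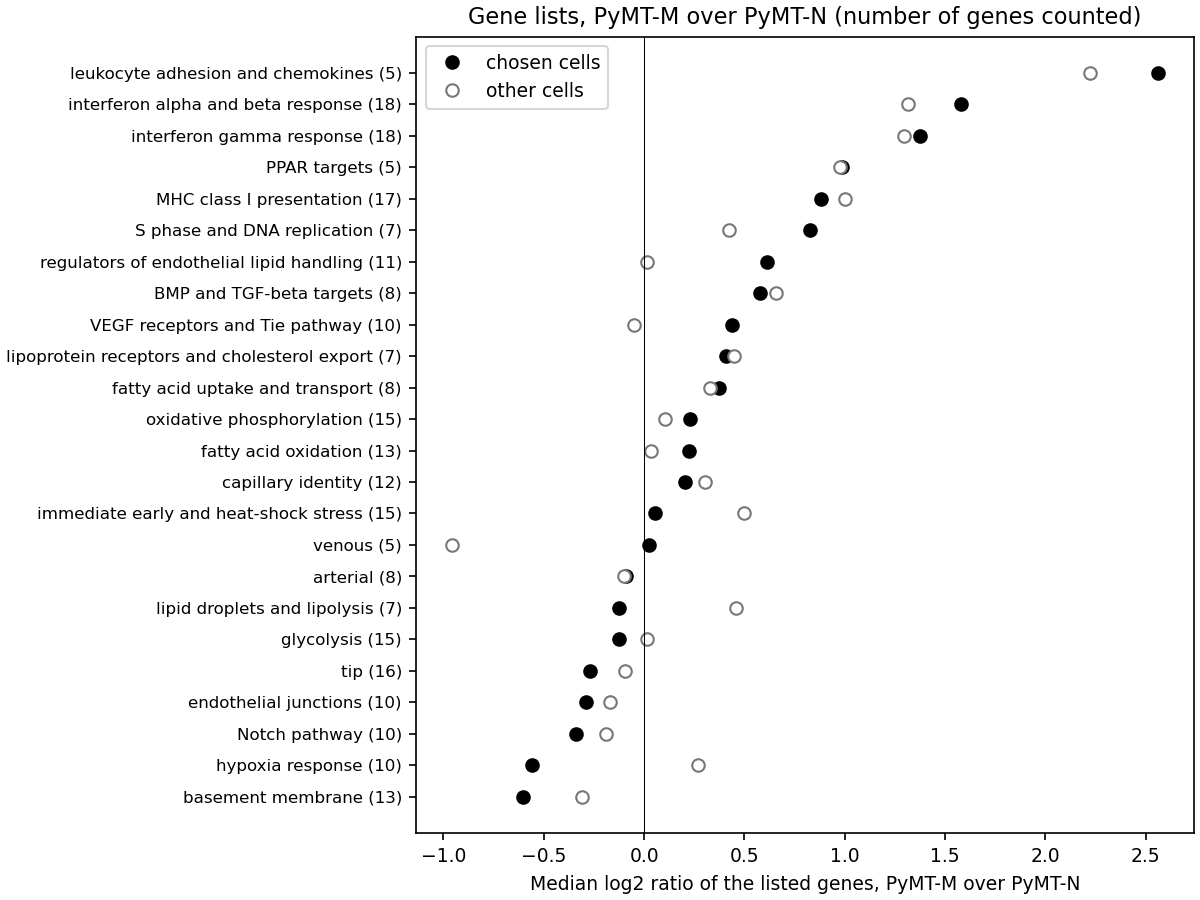
Median log2 ratio of CPM, PyMT-M over PyMT-N, of the genes of each list with at least 4 ranked members, in Fabp4-high cells (filled) and other gated cells (open), with the number of genes in brackets. Leukocyte adhesion and interferon response genes stand highest, at 2.56, 1.58 and 1.38 in Fabp4-high cells, and basement membrane genes lowest at -0.60. The first value is that of 1 gene, Cxcl12.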

How the data were processed

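For both libraries the authors deposited counts of UMIs (genes by barcodes), made with Cell Ranger 8.0.0 on mm39 per the submitters' processing notes, without normalization and with 3 tumors pooled per library. Barcodes with at least 1000 genes and at most 10% mitochondrial UMIs were kept. An endothelial cell had at least 5 UMIs of Pecam1, Flt1, Emcn and Kdr, at most 1 of Krt8, Krt18, Rhox5, Col1a1, Col3a1 and Ptprc, none of Prox1, under 8 of 7 cycling genes and under 3 of Ackr1 and Selp. No doublet caller was run. The limit on other lineages removes barcodes mixed with tumor, stromal or immune RNA, and an alternative left out the 6% deepest cells. UMIs were summed per group of cells and library. No test between samples was made, since each condition has 1 library. Intervals are exact Poisson or Clopper-Pearson at 95%, and a count of 0 took a floor of 3 counts for its group. A gene was past the fold at a log2 ratio of 1 or -1.

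Named genes were the choosing genes, the 15 highest and 10 lowest by the smaller ratio of both libraries, the 10 highest and lowest between libraries, members of the lipid lists, and the 3 highest or lowest members of other lists, of which 1 gene is not reported here. The members, the 33 lists and the comparisons were chosen with earlier results of these data known. The ranks of the sum (highest 5% and so on), Mogat2, Ucp2, Gja5 and the genes set against a Cd36 UMI were picked after their values were seen. The computation of the ratios was checked on simulated counts. The tools were scipy 1.17.1, numpy 2.4.6 and pandas 2.3.3 in Python 3.11.15. Reads shared by near-identical genes (H2, hemoglobin, Ifit genes) could be split or lost in counting. For dissociation the sample protocol lists collagenase I, the study's methods collagenase II with dispase II.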

Additional observations from a re-analysis of the deposited data

Results flagged for a closer look

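Fabp4 UMIs were also found in tumor cells, which above were only set beside endothelial cells. PyMT-M tumor cells had 719 UMIs, or 6.16 CPM, in 276 of 4686 cells (5.89%), and PyMT-N tumor cells 59 UMIs, or 0.839 CPM, in 57 of 3072 cells (1.86%). Both were above the level of 3 counts that a count of 0 allows, 0.0257 and 0.0426 CPM. In PyMT-M 38 cells had at least 5 Fabp4 UMIs, the highest had 33, and 28.0% of the UMIs were in 10 cells, whereas in PyMT-N no cell had more than 2.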

How the results depend on the processing

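The share of Fabp4-high cells was higher in PyMT-M by 9.12 to 42.8 percentage points in the alternatives that left it free. With the top 25% taken within each library, where shares are equal by construction, the difference was 0.0293 points. It was 42.8 points (52.9 against 10.1%) with Fabp4 left out of the sum and 32.7 points (46.3 against 13.6%) with the mean of ranks. The log2 ratio of the sum was 3.83 and 2.88 (PyMT-M and PyMT-N) as a mean of per-cell CPM and 3.50 and 2.55 in UMIs not used to choose. The 3 genes higher in both libraries became 1, Fabp5, in cells thinned to 3000 UMIs, where 2128 genes could be ranked and Rbp7 (2.26 and 1.72) and Cxcl12 (1.45 and 1.58) kept their fold but not the UMI minimum, 5 with a minimum of 20 UMIs and, in cells chosen without Fabp4, 10 of which Rbp7 alone was among the 3. Against the lowest 25%, with 2276 genes ranked, Rbp7 was too scarce and the lower gene was Lrmda in place of Chga. The 1 lower gene became 2 within libraries, 2 thinned (Lrmda and another, without Chga), 0 without the 6% deepest cells, where Chga fell below the UMI minimum, 39 with a minimum of 20 UMIs, 15 without Fabp4 and 2 in cells of at least 3000 UMIs. Between libraries the 302 higher and 388 lower of 7095 genes became 146 and 179 of 3368 thinned, 611 and 637 of 9352 with a minimum of 20 UMIs, and 175 and 187 in the other cells. In cells chosen without Fabp4, which share 146 of 327 cells with the main choice, 3 PyMT-N ratios past 2-fold reversed, Fabp5 to -0.45, Lrmda to 0.74 and Slc1a5 to 0.50, and with these 14 ratios of named genes changed sign. Egr1 also went to 0.0016 in PyMT-N when thinned. The choices on Fabp4 alone and, for genes, without Fabp4, the cells of at least 3000 UMIs, the other cells, the minimum on mean CPM and the removal of shared barcodes were added after seeing the data. Of the other ratios of named genes between chosen and other cells 423 moved less than their counting interval and 74 more. Where no construction shows it, the cause was not tested. Setting the median of all genes to 0 changed the sign of 4 list medians, all in PyMT-M (capillary identity, venous, Notch and glycolysis), and including genes below the minimum changed 8. The 8 were those of lipoprotein genes (both libraries), lipid droplets, oxidation, lipid regulators, capillary identity and VEGF receptors (PyMT-M), and leukocyte adhesion (PyMT-N). No paired analysis was possible because each condition has 1 library. Depth limits PyMT-M most, where 27 chosen cells had under 3000 UMIs.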
